A study of Danio rerio with 15 samples.

Results

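Granulocyte colony-stimulating factor (G-CSF) acts through a single-chain class I cytokine receptor that is carried mainly by neutrophils and their precursors. Binding of the ligand activates Janus kinases and the transcription factor Stat3, and the receptor is restrained by suppressors of cytokine signalling, of which SOCS3 binds the activated receptor in mammals. The axis sets how many neutrophils are made at rest, raises their output in infection and releases them from blood-forming tissue. Zebrafish have 1 receptor gene, csf3r, and a pair of ligand genes, csf3a and csf3b. They were picked by gene symbol, 3 genes out of 15937 in the table, and all 3 passed the filter on low values and were tested.

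RNA was sequenced from neutrophils of zebrafish embryos, isolated by green fluorescence under the mpx promoter, in 15 libraries. There were 3 libraries each of wildtype, tet2-/-, tet3-/- and the double mutant tet2/3DM at 2 dpf (days post fertilization), and 3 of wildtype embryos at 1.5 dpf. Tet proteins oxidise methylated cytosine in DNA. All groups were sorted on the same mpx reporter, so mpx took part in choosing the cells. The labels name no allele, no number of embryos per library and no sorting day. Recovered read totals ran from 5.64 to 31.06 M reads per library. The shallow tet3-/- replicates 1 and 2 differed by 3.98 times sampling noise, against 8.56 for the next lowest pair, but this measure rises with read depth. By correlation of log2 values they were not the closest, but sampling noise in shallow libraries lowers this measure, so neither decides. Pairs in tet3-/- were at 0.941 to 0.942 and pairs in wildtype at 2 dpf at 0.956 to 0.967. Muscle markers summed to 128.3 and 128.6 CPM (counts scaled to the library total) in tet3-/- replicates 1 and 2, against 555.6 in replicate 3. Erythroid markers summed to 598.6 and 599.1, against 953.2. The labels do not say whether tet3-/- replicates 1 and 2 share a source. If they do, tet3-/- has fewer than 3 independent libraries. Of 14 neutrophil markers 13 were in the table and all 13 were above 0 in every library. The counts behind the 3 genes ran from 40 reads (csf3b, wildtype at 2 dpf, replicate 3) to 4871 reads (csf3r, double mutant, replicate 1).

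Values below are normalised read counts, which are counts divided by 1 size factor per library. Changes are log2 differences of the normalised count plus 1 from limma, fitted over all groups. Each adjusted p given for limma is a Benjamini-Hochberg value over 15933 tested genes, with a threshold of 0.05. Separate clutches or sorts are not stated for the replicates, so p-values cover the spread from library to library, part of which may be technical. The comparisons of mutants and of the younger stage with wildtype at 2 dpf share the same 3 control libraries and are not independent of each other.

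The receptor gene was at a similar level in all groups at 2 dpf and was higher at 1.5 dpf. csf3r (ENSDARG00000045959) was at 2121, 2277 and 2831 in the 3 wildtype libraries at 2 dpf. In tet2-/- it was at 1658, 3067 and 2326, in tet3-/- at 2692, 2557 and 2383, and in double mutants at 2387, 1987 and 2418. Each mutant group overlapped the wildtype libraries, and the tet2-/- libraries were the most spread of the 4 groups, with replicate 1 the lowest of all 15 libraries. At 1.5 dpf wildtype libraries were at 3245, 4266 and 3495, all above every other library.

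In double mutants the mean of csf3r was 2264 ± 240.3 (SD, n = 3), against 2409.7 ± 373 in wildtype at 2 dpf, a 0.943-fold level with a 95% interval of 0.695 to 1.28 (adjusted p = 0.86 by limma). The ratio was 0.953 in tet2-/- (interval 0.703 to 1.29, adjusted p = 0.98 by limma) and 1.06 in tet3-/- (interval 0.784 to 1.44, adjusted p = 0.85 by limma). At 1.5 dpf the mean was 3668 ± 533, and csf3r was called higher than at 2 dpf (adjusted p = 0.048 by limma, with a log2 change of 0.61 and an SE of 0.21). That comparison called 20.8% of all tested genes, and 9.18% of all tested genes were called higher. The call for csf3r was lost when any 1 library of either group was left out (log2 change 0.49 to 0.73, adjusted p 0.055 to 0.16 by limma), and with edgeR on recovered reads (adjusted p = 0.051).

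In order of the means, csf3r was highest in wildtype at 1.5 dpf, followed by tet3-/-, wildtype at 2 dpf, tet2-/- and double mutants. Only the step from 1.5 dpf wildtype to the next group had libraries that did not overlap. The receptor gene was also a steady one: its residual SD within groups was 0.25 on the log2 scale, the 19.5th percentile of 15933 genes.

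**Figure D1:**
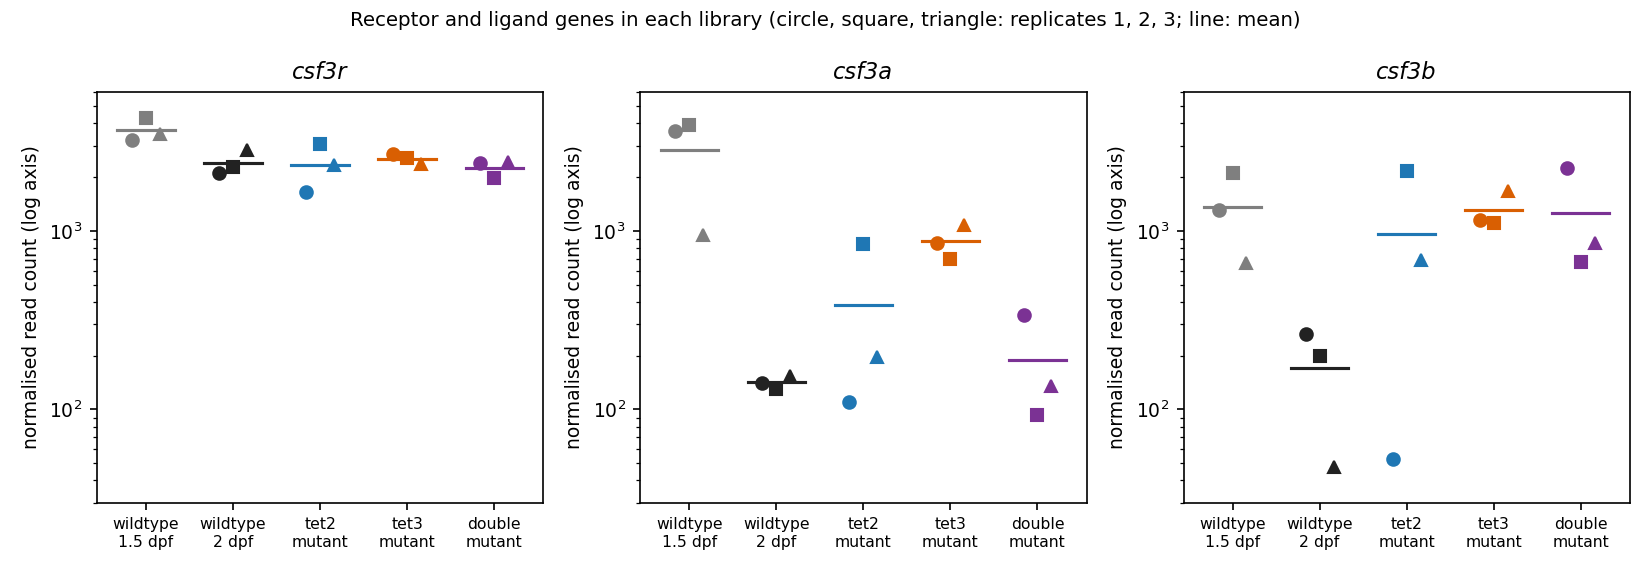
Normalised read count (log axis) of the receptor gene csf3r and the ligand genes csf3a and csf3b in each of 15 libraries, by group; circles, squares and triangles are replicates 1, 2 and 3 and lines are group means. csf3r lay between 1658 and 4266 throughout, while csf3a ran from 93.5 to 3909.5 and csf3b from 47.5 to 2255.

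The ligand genes spread over a wider range than the receptor gene. csf3a (ENSDARG00000102211), 1 of the ligand genes, was at 141, 131 and 154 in wildtype at 2 dpf, the tightest of its groups. In tet3-/- it was at 853, 699.5 and 1074, with no overlap with wildtype. In tet2-/- it was at 110.4, 848 and 195, and in double mutants at 337, 93.5 and 135, and both groups overlapped wildtype. At 1.5 dpf it was at 3624, 3909.5 and 945, above every wildtype library at 2 dpf.

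csf3a rose in tet3-/- from 142 ± 11.8 to 876 ± 188 (6.05-fold; adjusted p = 0.03 by limma, with a log2 change of 2.60 and an SE of 0.67), where 3.69% of tested genes were called higher. It was also higher at 1.5 dpf, at 2826 ± 1635, than at 2 dpf (16.6-fold, log2 change 4.06, SE 0.67, adjusted p = 0.00096 by limma). The younger group's call held when any 1 of its or the control libraries was left out (adjusted p 0.00069 to 0.006 by limma). The tet3-/- call was lost in each such fit, those without replicate 1 or 2 included, with log2 changes of 2.44 to 2.75 and adjusted p from 0.071 to 0.1. With hsp70l, a heat shock gene, entered as a covariate neither passed (log2 change 0.99 in tet3-/- and 1.99 at 1.5 dpf, adjusted p = 0.75 and 0.63 by limma).

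In the other mutants csf3a did not pass. Its mean in tet2-/- was 385 ± 403 (log2 change 0.89, 95% interval -0.53 to 2.32, adjusted p = 0.91 by limma), and in double mutants 189 ± 130.3 (log2 change 0.19, 95% interval -1.23 to 1.62, adjusted p = 0.91 by limma). All 3 double mutant libraries were below all 3 tet3-/- libraries (a log2 change of -2.40 with an SE of 0.67; limma's adjusted p = 0.081), and this did not pass either. In that comparison 12.0% of genes had lower libraries without overlap. The interaction of tet2 and tet3 loss, the change in double mutants less the sum of the changes in single mutants, was -3.29 for csf3a (SE 0.94), with an unadjusted p of 0.0034 and an adjusted p = 0.23 by limma. Only 0.333% of genes were called for the interaction.

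csf3b (ENSDARG00000098752), the ligand gene that the deposited table pairs with human CSF3, was at 264, 198 and 47.5 in wildtype at 2 dpf. Every library of 3 other groups was above these. It was at 1152, 1108 and 1675 in tet3-/-, at 2255, 672 and 858 in double mutants, and at 1318, 2121 and 658 in wildtype at 1.5 dpf. In tet2-/- it was at 52.8, 2153 and 688, so that replicate 1 was among the 2 lowest of all libraries and replicate 2 among the 2 highest.

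The mean of csf3b in wildtype at 2 dpf was 170.1 ± 111. In tet3-/- it was 1312 ± 316 (log2 change 3.24, 95% interval 0.83 to 5.64, adjusted p = 0.1 by limma), in double mutants 1262 ± 866 (log2 change 3.00, adjusted p = 0.12 by limma) and at 1.5 dpf 1366 ± 733 (log2 change 3.16, adjusted p = 0.061 by limma). None of these passed, although the unadjusted p was 0.012, 0.019 and 0.014. With 1 library left out the log2 change ran from 2.49 to 3.71 in tet3-/-, 2.25 to 3.47 in double mutants and 2.41 to 3.64 at 1.5 dpf. Libraries higher without overlap were found for 19.3% of genes in tet3-/-, for 15.5% in double mutants and for 20.9% at 1.5 dpf. DESeq2 on recovered reads did call csf3b in all 3 comparisons (adjusted p = 0.028, 0.028 and 0.012), and edgeR on the same reads called it in none of them. DESeq2 also called more genes in all, at 1732, 2093 and 3999, against 1159, 1383 and 3317 by limma. The residual SD of csf3b was 1.47 on the log2 scale, the 98.2th percentile of tested genes, and that of csf3a was 0.96, the 91.9th percentile. The tet2-/- mean of csf3b was 964 ± 1077 (log2 change 1.65, 95% interval -0.75 to 4.06, adjusted p = 0.89 by limma, 0.49 to 3.15 with 1 library left out), where 0.1% of genes were called.

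For csf3a the order of the means was wildtype at 1.5 dpf, tet3-/-, tet2-/-, double mutants and wildtype at 2 dpf. For csf3b it was wildtype at 1.5 dpf, tet3-/-, double mutants, tet2-/- and wildtype at 2 dpf. Neighbours in both orders had overlapping libraries at every step. Double mutants against tet2-/- gave no call for the ligand genes, with log2 changes of -0.70 for csf3a and 1.34 for csf3b (adjusted p = 0.67 and 0.6 by limma), and csf3r differed by -0.02. In that comparison 4.45% of genes were called, and 2.33% were called in double mutants against tet3-/-, where csf3r differed by -0.17 and csf3b by -0.24.

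**Figure D2:**
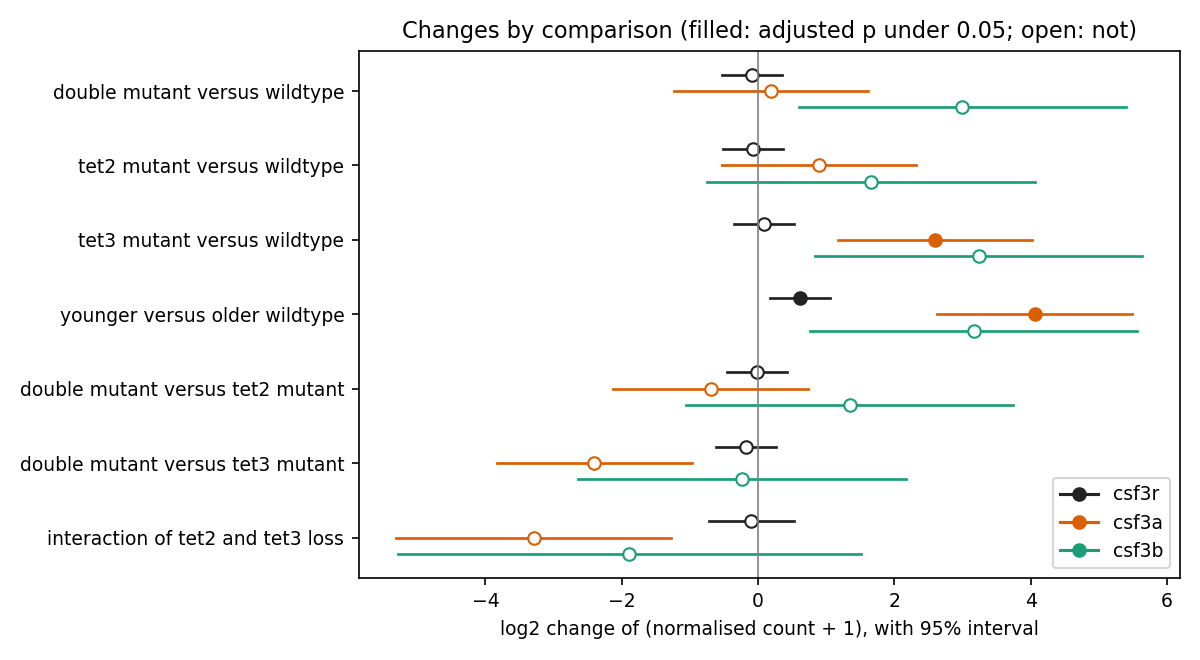
Log2 change of the normalised count plus 1, with its 95% interval, for csf3r, csf3a and csf3b in 7 comparisons; filled circles passed the adjusted threshold and open circles did not. The passing values are csf3a in tet3-/- (2.60), csf3a at 1.5 dpf (4.06) and csf3r at 1.5 dpf (0.61), and the csf3r intervals are the narrowest.

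Within groups the ligand genes varied together. In 4 of 5 groups the 3 libraries had the same order for csf3a as for csf3b, and wildtype at 2 dpf was the exception. Replicate 2 of tet2-/- and replicate 1 of the double mutants were the highest of their group for both genes, and replicate 3 of wildtype at 1.5 dpf was the lowest for both. Over the 15 libraries the log2 values of csf3a and csf3b correlated at 0.65, and the deviations from the group means at 0.77. The deviations of csf3b correlated about as closely with those of the neutrophil markers lyz (0.76) and mpx (0.73). For csf3a these values were 0.72 and 0.7. csf3r correlated with csf3a at 0.81 (0.67 for the deviations) and with csf3b at 0.48 (0.58). These are descriptions over libraries that share their group and composition.

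The ratio of the ligand transcripts in double mutants did not overlap that of any other group, a pattern singled out after its values were seen. The ratio of csf3b to csf3a normalised counts within a library was 6.69, 7.18 and 6.35 in double mutants. In the other 12 libraries it ran from 0.308 to 3.52. It was 1.35, 1.58 and 1.56 in tet3-/- and 0.364, 0.542 and 0.696 in wildtype at 1.5 dpf. It varied more in wildtype at 2 dpf, at 1.87, 1.52 and 0.308, and in tet2-/-, at 0.478, 2.54 and 3.52. The ratio depends on transcript length and so says nothing of which ligand is more abundant, only that the balance differed between libraries.

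In double mutants the log2 ratio was 2.82 above that in wildtype at 2 dpf, with an exact two-sided permutation p of 0.1, the smallest that 3 against 3 libraries allow, and 0.4 when adjusted over 4 comparisons. The other 3 groups gave exact permutation p-values of 0.4 at 1.5 dpf, 0.5 in tet2-/- and 0.8 in tet3-/-. The double mutant libraries were the deepest, at 27.19 to 31.06 M reads, and held 165 to 688 reads of csf3a.

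**Figure D3:**
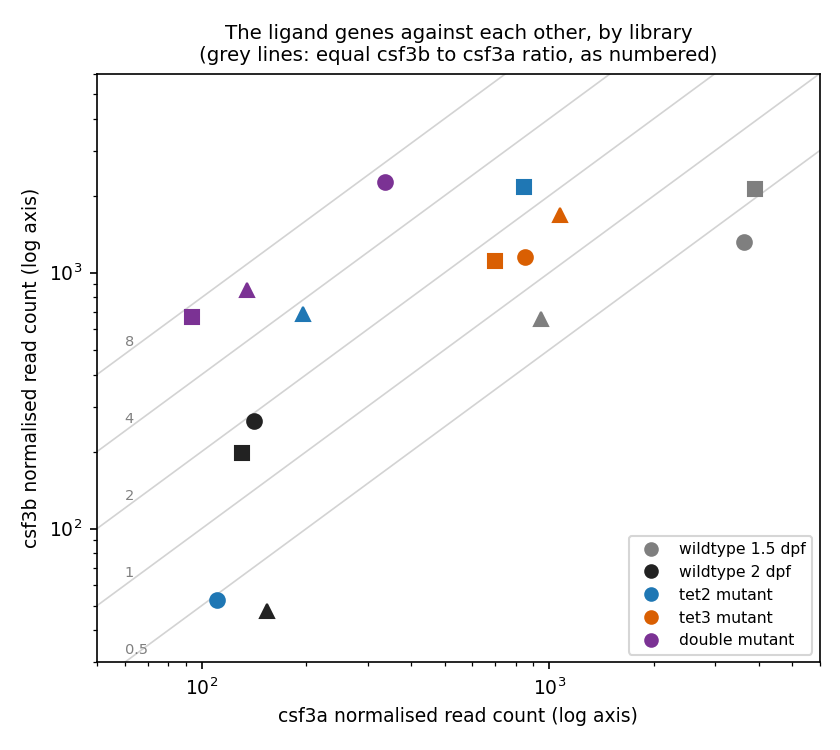
Normalised read count of csf3b against that of csf3a (log axes) in each of 15 libraries, coloured by group, with replicates 1, 2 and 3 as circles, squares and triangles; grey lines join equal csf3b to csf3a ratios. The 3 double mutant libraries lie between the lines of ratio 4 and 8, at 6.35 to 7.18, and every other library lies below the line of ratio 4.

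The share of neutrophil RNA in a library was set beside these values. In bulk libraries fewer cells of a type and less RNA per cell cannot be told apart. The 13 neutrophil markers together took 13989 to 17041 CPM (counts scaled to the library total) in wildtype at 2 dpf and 14242 to 33368 at 1.5 dpf. They took 9562 to 23585 in tet2-/-, 15562 to 18175 in tet3-/- and 12236 to 16312 in double mutants. mpx, the myeloperoxidase gene used for the sort, and lyz, which encodes lysozyme, did not pass in any of the 7 comparisons. By library, no tet3-/- library exceeded 93898 normalised counts of lyz, and no double mutant library exceeded 79701. The lowest wildtype library of the 2 dpf stage had 105758. For mpx the lowest tet3-/- library (39380) was above the highest of these wildtype libraries (38570). Such separation was common: 19.9% of all genes were lower without overlap in tet3-/- and 15.7% in double mutants, and 19.3% were higher in tet3-/-. lyz and mpx are both in the marker sum used as the divisor below, so their levels enter those values. In tet2-/- the marker sum had the same order of libraries as all 3 genes of the axis, lowest in replicate 1 and highest in replicate 2.

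Per 1000 counts of the neutrophil markers, csf3r ran from 7.23 to 12.3 in wildtype at 2 dpf and from 7.55 to 17.2 at 1.5 dpf, which overlap. It was at 9.41 to 9.99 in tet3-/-, 10.3 to 10.7 in double mutants and 7.03 to 10.9 in tet2-/-. On the same scale the wildtype libraries at 2 dpf held csf3a at 0.482 to 0.669, those at 1.5 dpf at 4.66 to 9.34 and those of tet3-/- at 2.57 to 4.49. For csf3b the range was 0.206 to 0.901 in the wildtype libraries at 2 dpf, against 4.08 to 7.003 for tet3-/-, 3.54 to 10.1 in double mutants and 3.24 to 3.75 at 1.5 dpf. On this scale csf3a in tet2-/- (0.590 to 2.21) and in double mutants (0.492 to 1.51) overlapped wildtype at 2 dpf, as csf3b did in tet2-/- (0.346 to 5.601). The other ligand ranges given here did not overlap it, as was so before this division. The share of all genes without overlap was not computed on this scale. The part of neutrophil share in these values was not tested.

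Transcripts of other cells and of heat shock also differed between these groups. At 1.5 dpf 12 of 12 erythroid markers were higher than at 2 dpf, with sums of 9644 to 10737 against 199 to 377 CPM, and 11 of 12 pigment cell markers were higher, against 9.18% of all genes. In tet3-/- 3 of 11 epidermis markers were higher (sums of 5162 to 6150.5 against 2594 to 3019.6 CPM), 5 of 12 pigment markers (395.5 to 481 against 94.2 to 105) and 5 of 16 endothelial markers (567 to 842 against 485 to 534), against 3.69% of all genes. In double mutants 9 of 16 endothelial markers were lower (176 to 206 CPM) and 7 of 12 pigment markers higher (504.6 to 819.8), where 8.68% of all genes were called. Of 12 macrophage markers 1 was higher and none lower in tet3-/-, with sums of 2705 to 2984 against 2514 to 2704 CPM. No marker in these lists was at 0 in every library. The part of other cells in the csf3a and csf3b values was not tested.

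The chaperone genes hsp70l and hsp70.3 together took 3.523 to 4.138% of normalised counts in wildtype at 2 dpf and 2.182 to 4.884% in tet2-/-. They took 0.279 to 0.299% in tet3-/-, 0.079 to 1.887% in double mutants and 0.057 to 0.107% in wildtype at 1.5 dpf. Whether reads can be separated between related hsp70 genes was not tested. csf3a correlated with hsp70l at -0.73 over the 15 libraries and at -0.43 for deviations from the group means, and csf3b at -0.66 and -0.25. Of 12 heat shock genes 10 were lower in tet3-/-, 11 in double mutants and 11 at 1.5 dpf, against 3.58%, 5.27% and 11.6% of all genes. None was called in tet2-/-, where 0.1% of all genes were called. The part of the heat shock state in the ligand values was tested only by the covariate fit given above, where hsp70l and group largely vary together and cannot be told apart.

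**Figure D4:**
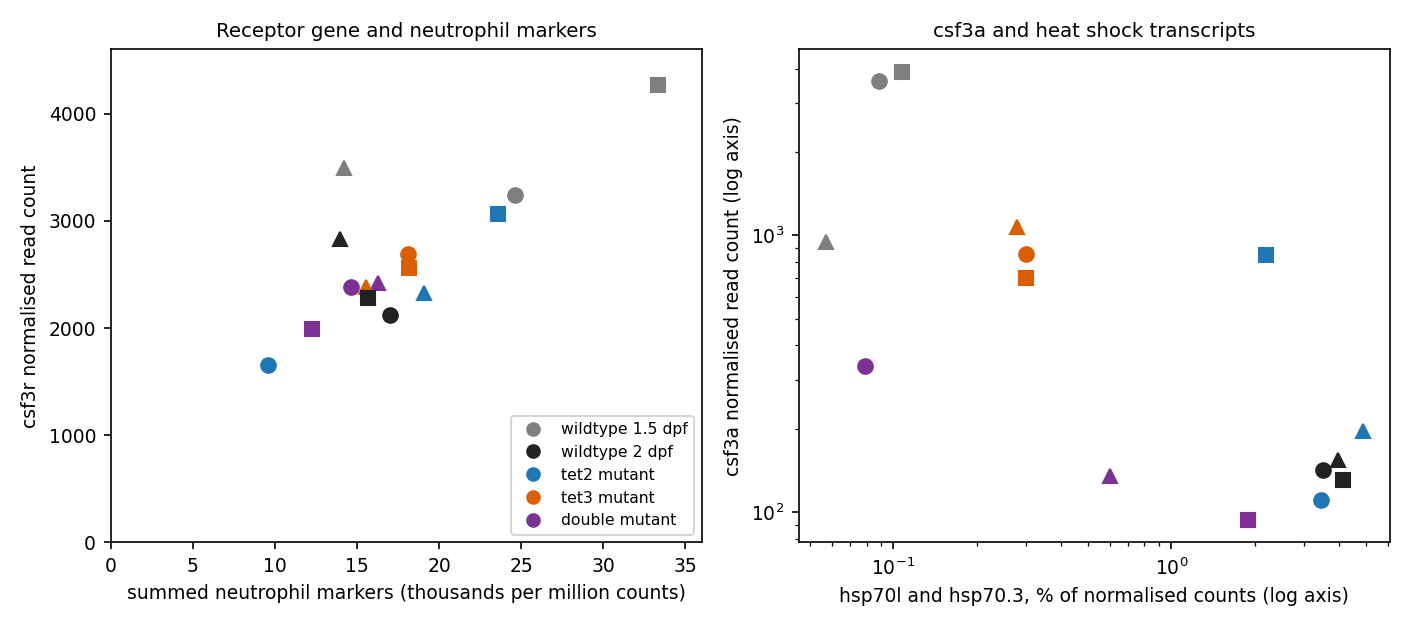
Left, csf3r normalised read count against the summed neutrophil markers (CPM, in units of 1000); right, csf3a against the share of hsp70l and hsp70.3 (log axes); points are the 15 libraries, coloured by group, with replicates 1, 2 and 3 as circles, squares and triangles. Replicate 1 of tet2-/- is lowest in csf3r (1658) and in neutrophil markers (9562 CPM), and the 3 tet3-/- libraries combine a heat shock share near 0.3% with csf3a of 699.5 to 1074.

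Among genes for signalling proteins at the receptor, few were called. Of 24 listed genes 23 were tested. None was called in double mutants, where 8.68% of all genes were called, and none in tet2-/-, where 0.1% were. In tet3-/- 1 rose (4.3%), against 7.27% of all genes, and at 1.5 dpf 2 fell (8.7%), against 20.8%. The medians were -0.16 in double mutants, -0.10 in tet2-/-, 0.04 in tet3-/- and -0.09 at 1.5 dpf, against 0.01, 0, -0.04 and -0.01 over all genes.

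The riser was gab2, a docking protein gene, from 178, 219 and 182 in wildtype to 399, 354 and 382 in tet3-/- (log2 change 0.97, adjusted p = 0.036 by limma), and it did not pass when any 1 library of these groups was left out. The kinase gene jak2b and the transcription factor gene stat5b fell at 1.5 dpf, with log2 changes of -0.69 and -0.77 (adjusted p = 0.018 and 0.024 by limma). stat3, the main transcription factor of the receptor, was at 647, 768 and 778 in wildtype at 2 dpf, at 1260.1, 1219 and 1045 in tet3-/- and at 1199.9, 1143 and 1383 in double mutants. Neither mutant group passed (log2 change 0.68 and 0.76, adjusted p = 0.098 and 0.061 by limma). Both were above every wildtype library, as were 19.3% of all genes in tet3-/- and 15.5% in double mutants. stat3 did pass in double mutants against tet2-/- (log2 change 0.93, adjusted p = 0.035 by limma). It did not with edgeR on recovered reads (adjusted p = 0.053) nor without tet2-/- replicates 1 or 3 or double mutant replicates 1 or 3.

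Negative regulators had the same 3 genes called in tet3-/-, in double mutants and at 1.5 dpf, all against the same controls. Of 15 listed genes 12 were tested. 2 were higher and 1 lower in each of these comparisons, and none was called in tet2-/-, where 0.1% of all genes were called. The 3 calls are 25.0% of the list, against 8.68% of all genes in double mutants, 7.27% in tet3-/- and 20.8% at 1.5 dpf. The list's median log2 change was -0.14 in double mutants, -0.10 in tet3-/- and 0.08 at 1.5 dpf.

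socs3b, which encodes a suppressor of cytokine signalling of the Socs3 type, was at 679, 463 and 543 in wildtype at 2 dpf. It was at 2116, 2219 and 3032 in tet3-/- and 5114, 1855 and 2456 in double mutants, without overlap in either (adjusted p = 0.0019 and 0.00045 by limma). Of all genes 19.3% in tet3-/- and 15.5% in double mutants were higher without overlap. The library with the highest csf3b of its group also had the highest socs3b in 4 of 5 groups. The exception was wildtype at 1.5 dpf, where csf3b was highest in replicate 2 and socs3b lowest there, at 1492. The correlation of socs3b with csf3b was 0.78 over the 15 libraries and 0.50 for the deviations from the group means, and that with csf3r was 0.23 and 0.25. socs2, a suppressor known from growth hormone signalling, rose by 2.37 in tet3-/- and 2.05 in double mutants on the log2 scale from 5.65, 24.8 and 27.3 (adjusted p = 0.02 and 0.033 by limma). The value of 5.65, in wildtype replicate 1, is near that of 3 reads in that library (4.24), so the size of these changes is uncertain. cblb, a ubiquitin ligase gene, fell in both, with log2 changes of -1.02 in tet3-/- and -1.55 in double mutants (adjusted p = 0.011 and 0.00033 by limma). With hsp70l as a covariate none of these 3 passed in tet3-/-, in double mutants or at 1.5 dpf.

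Factors of granulocyte production and survival had 18 of 20 genes tested. In tet2-/- none was called, where 0.1% of all genes were. In double mutants 1 rose and 3 fell, in tet3-/- also 1 and 3, and at 1.5 dpf 2 and 4. These are 22.2% of the list in double mutants and in tet3-/-, against 8.68% and 7.27% of all genes, and 33.3% at 1.5 dpf, against 20.8%. The list's median was -0.69 in double mutants and -0.24 in tet3-/-. cebpd, a C/EBP transcription factor gene, rose in all 3 comparisons, from 549.9, 353 and 533 in wildtype to 2261, 2409.6 and 3032 in tet3-/- (log2 change 2.44, adjusted p = 0.0006 by limma) and to 1695, 773 and 1266 in double mutants (log2 change 1.33, adjusted p = 0.018 by limma). With hsp70l as a covariate cebpd passed in none of the 3, with log2 changes of 1.27 in tet3-/-, 0.40 in double mutants and 0.02 at 1.5 dpf.

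mcl1a, a survival gene of neutrophils that opposes apoptosis, fell in all 3, with log2 changes of -3.05 in tet3-/-, -2.70 in double mutants and -3.15 at 1.5 dpf (adjusted p = 8e-05, 6e-05 and 1.2e-05 by limma). With the covariate it passed in double mutants (-2.04, adjusted p = 0.038) and not in tet3-/- (-2.22, adjusted p = 0.09) or at 1.5 dpf (-2.08, adjusted p = 0.19). It was the 1 call kept with the covariate among 12 for the genes named from the pathway lists in double mutants. None was kept of 14 in tet3-/- and of 21 at 1.5 dpf. Over all genes the covariate fit called 159 in double mutants, 21 in tet3-/- and 41 at 1.5 dpf, against 1383, 1159 and 3317 without it. Of such named calls, 3 of 3 were kept in double mutants against tet3-/- and 2 of 2 for the interaction. Over all genes the covariate raised the calls there, from 372 to 513 and from 53 to 81. Against tet2-/- none of 10 was kept, and calls over all genes went from 709 to 108. The other falls were pim1, a kinase gene, and myb in double mutants, and bcl2l1 and junba in tet3-/-. At 1.5 dpf bcl2l1, junba and mcl1b fell and cebpa, a factor of early granulocyte fate, rose (adjusted p = 0.025 by limma). cebpb, the C/EBP gene known for emergency granulopoiesis in mammals, was at 22953, 19908 and 17871 in wildtype and did not pass in any comparison, with log2 changes from -0.62 to 0.28 between groups. Its deviations from the group means correlated with those of csf3b at 0.91 and of csf3a at 0.85. Those of the neutrophil marker lyz did so at 0.76 and 0.72.

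Genes that hold neutrophils in place or draw them out had 8 of 11 members tested. None was called in double mutants, tet3-/- or tet2-/- against wildtype, where 8.68%, 7.27% and 0.1% of all genes were called. With 8 genes tested, such shares leave few calls to be had. At 1.5 dpf 1 was higher, which is 12.5% against 20.8% of all genes. This was cxcr1, a chemokine receptor gene, at 238, 281 and 69.1 against 26.9, 13.5 and 10.7 (log2 change 3.32, adjusted p = 0.01 by limma). mmp9, a matrix protease gene, was higher in double mutants than in tet2-/- (log2 change 2.17, adjusted p = 0.014 by limma).

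Other cytokine receptor genes had 24 of 30 members tested. The share called was 12.5% in double mutants, 8.3% in tet3-/- and 12.5% at 1.5 dpf, against 8.68%, 7.27% and 20.8% of all genes. In double mutants il6st, which encodes the shared gp130 chain of the interleukin 6 family and a relative of the G-CSF receptor, rose from 969.8, 994 and 1030.4 to 1610.0, 2496 and 2195 (log2 change 1.05, adjusted p = 0.016 by limma). il2rga, the common gamma chain, and il13ra2 fell there, with log2 changes of -1.57 and -2.51. In tet3-/- il6st rose by 1.21 and il13ra1 by 1.45. At 1.5 dpf il6r was higher by 1.12, and mpl, the thrombopoietin receptor, and il11ra were lower. il11ra was at 3.91 in replicate 2 at 1.5 dpf, the value of 3 reads in that library, so the size of its change is uncertain. None was called in tet2-/-, where 0.1% of all genes were called.

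Other ligand genes had 9 of 16 members tested. The share called was 11.1% in double mutants and in tet3-/- and 44.4% at 1.5 dpf, against 8.68%, 7.27% and 20.8% of all genes. il6, the interleukin 6 gene, was at 237.5, 299 and 176 in wildtype at 2 dpf, at 2452, 2377 and 3136 in tet3-/-, and at 5002, 4726 and 1446 at 1.5 dpf. In tet2-/- it was at 268, 3642 and 557, with the same highest and lowest replicates as csf3a, and in double mutants at 176, 100.3 and 64.1. It rose in tet3-/- (log2 change 3.50, adjusted p = 0.016 by limma) and at 1.5 dpf (adjusted p = 0.0042), and was lower in double mutants than in tet3-/- (-4.64, adjusted p = 0.0056). Over the 15 libraries il6 correlated with csf3a at 0.91 and with csf3b at 0.53, and il11b, an interleukin 11 gene, at 0.92 and 0.66. kitlga, a stem cell factor gene, rose in double mutants from 304, 337 and 292 to 827, 628 and 958 (log2 change 1.35, adjusted p = 0.0013 by limma). At 1.5 dpf il11b rose by 3.19, and csf1a and csf1b, which encode macrophage colony-stimulating factors, fell, with log2 changes of -1.80 and -3.51. csf1b was at 5.21 in replicate 2 at 1.5 dpf, near the value of 3 reads in that library (3.91), so the size of its change is uncertain.

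Genes known to induce G-CSF had 11 of 12 members tested. In tet3-/- 3 rose and none fell, at 1.5 dpf 4 rose and none fell, and in double mutants none rose and 1 fell. These are 27.3%, 36.4% and 9.1% of the list, against 7.27%, 20.8% and 8.68% of all genes. The medians were 0.56 in tet3-/-, 0.95 at 1.5 dpf, -0.21 in double mutants and 0.16 in tet2-/-. The risers in tet3-/- were nfkb2 and rela, subunits of NF-kappaB, and tlr5b, a flagellin receptor gene, with log2 changes of 1.36, 0.69 and 1.75 (adjusted p = 0.014, 0.035 and 0.031 by limma). rela and tlr5b did not pass when any 1 library of these groups was left out. At 1.5 dpf the same 3 rose, and tnfa rose by 2.35.

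il1b, the interleukin 1 beta gene, fell in double mutants, from 9119.7, 8184 and 6756 to 1863, 1515 and 992 (log2 change -2.50, adjusted p = 0.004 by limma). In the same libraries csf3b was above every wildtype library. Over all 15 libraries il1b and csf3b correlated at 0.20, and within groups, as deviations from the group means, at 0.89. For csf3a these values were 0.71 and 0.86. Within groups the neutrophil marker lyz correlated with csf3b at 0.76 and with csf3a at 0.72.

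**Figure D5:**
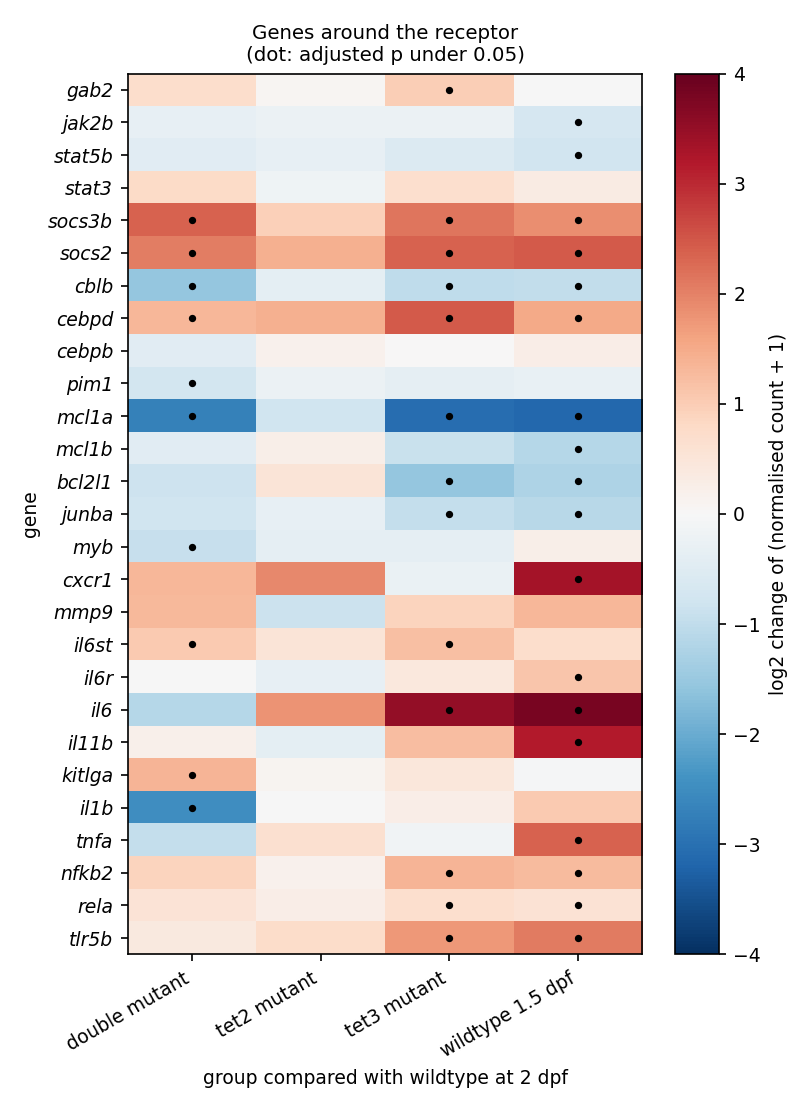
Log2 change against wildtype at 2 dpf (colour) of 27 genes around the receptor in double mutants, tet2-/-, tet3-/- and wildtype at 1.5 dpf. A black dot marks an adjusted p under 0.05. The genes were chosen from the named genes by no fixed rule, so their dots are not a share of the lists. Left out were the called genes il13ra1, which rose, and il2rga, il13ra2, mpl, il11ra, csf1a and csf1b, which fell. Of all genes 8.68%, 0.1%, 7.27% and 20.8% were called in these comparisons. socs3b, socs2 and cebpd rise and cblb and mcl1a fall with a dot in 3 columns, il6 has a dot in tet3-/- (3.50) and at 1.5 dpf but not in double mutants, and no gene has a dot in tet2-/-.

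The genes whose course over the 15 libraries was most like that of csf3r were named by their Pearson correlation on the log2 scale, among 12212 genes with a mean of at least 50. They were FRRS1 (1 of many) at 0.93, C5AR1 and rab5b at 0.92, slc35a3b, fam78ab, mfsd10, arf1 and cass4 at 0.89. C5AR1 encodes the receptor for complement fragment C5a, a neutrophil attractant, and its deviations from the group means correlated with those of csf3r at 0.91. rab5b encodes a GTPase of early endosomes and arf1 one of the Golgi. FRRS1 is given in the table as 1 of several copies, and its value is uncertain. The most opposed courses were those of rasa1a, a regulator of Ras (-0.90), abcc9 (-0.90), twsg1a (-0.89) and rgmb (-0.88). stat3 had a weak correlation with csf3r over all libraries (0.36) and a close one for the deviations from the group means (0.91). csf3a was itself close to csf3r, at the 99th percentile of these genes.

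The neighbours of the 3 genes in the RefSeq gene table for assembly GRCz12tu, used for gene order only, were read in the same fits. csf3a lies beside med24 and csf3b beside psmd3, genes that flank the single G-CSF gene in mammals. Of 12 tested neighbours, 2 on each side of each gene, 2 were called in double mutants, 2 in tet3-/- and 2 at 1.5 dpf, each 16.7%, against 8.68%, 7.27% and 20.8% of all genes. lars2, next but 1 to csf3r, was higher at 1.5 dpf (log2 change 1.16, adjusted p = 0.025 by limma). myof, next to csf3a, rose by 1.95 in tet3-/- (adjusted p = 0.0023 by limma) and by 1.61 in double mutants, and was -0.20 at 1.5 dpf, where csf3a was highest. kpnb1, next to csf3b, rose by 0.65 in tet3-/-, 0.64 in double mutants and 0.56 at 1.5 dpf (adjusted p = 0.025, 0.023 and 0.024 by limma). med24 and psmd3 did not pass in these comparisons, with log2 changes between 0.34 and 0.47.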

How the data were processed

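RNA of sorted neutrophils was profiled in 15 libraries prepared with Illumina's TruSeq RNA kit v2, per the labels' protocols. It leaves strand unmarked, so reads cannot be assigned between genes that overlap or run antisense. The submitters' processing notes name TopHat, Cufflinks and DESeq2 without versions. No source used here states the genome build, annotation or counting program. The deposited table gives 1 signal value per gene and library, read from the values as counts over a size factor: 100% were whole multiples of 1 read within 0.01 reads. Of 15937 identifiers 15194 were in the gene name table.

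limma 3.58.1 (R 4.3.3) was fitted to log2(value + 1) with 5 group means, a mean-variance trend and robust moderation. A value of at least 10 in 3 libraries was required, which kept 15933 genes. All tests were two-sided, and p-values were adjusted by Benjamini-Hochberg. Alternatives used edgeR 4.0.16 and DESeq2 1.42.0 on recovered reads. The limma, edgeR and DESeq2 calls were tested on simulated data for double mutants against wildtype only, and the other steps were not. Replicate pairs differed by 3.98 (tet3-/- replicates 1 and 2) to 284.5 times what sampling allows, and all were counted as separate.

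The 3 genes and 16 gene lists (219 of 244 entries tested) were chosen with earlier results of these data known. Named genes are the 3 genes, socs3b, stat3, cebpb, mpx and lyz, up to 4 called members with the smallest p per pathway list and comparison, and the 8 most and 4 least correlated with csf3r. cebpa and neighbouring genes were named besides. Replicate numbers recur in every group, but the labels do not say that they pair libraries.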

Additional observations from a re-analysis of the deposited data

Results flagged for a closer look

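The test of the interaction of tet2 and tet3 loss passed for a pair of genes around the receptor, where 0.333% of all genes were called. il6 had an interaction of -6.46 on the log2 scale (adjusted p = 0.02 by limma). It was higher in tet3-/-. In double mutants it was at 176.4, 100.3 and 64.1, against 237.5, 298.6 and 175.7 in wildtype, a narrow overlap. In tet2-/- il6 was at 268, 3642 and 557, so that this arm leans on replicate 2. The il6 interaction did not pass without wildtype replicates 2 or 3, tet3-/- replicates 1 or 2, or double mutant replicates 2 or 3. cebpd had an interaction of -2.51 (adjusted p = 0.023 by limma), and its call was lost in 7 of the 12 fits that left out 1 library. Its mean was 479 ± 109 in wildtype, 1325 ± 568 in tet2-/-, 2568 ± 409 in tet3-/- and 1244 ± 461 in double mutants. With hsp70l as a covariate both interactions passed (-6.19 for il6 and -2.21 for cebpd, adjusted p = 0.023 and 0.021 by limma). That fit called 81 of all genes for the interaction, against 53 without the covariate. Without both shallow tet3-/- libraries, which leaves 1 library in that arm, the interactions were -6.71 for il6 and -2.76 for cebpd and neither passed, which at that size says nothing about stability. Groups of 3 libraries were too small for the check for single outlying samples.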

How the results depend on the processing

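TMM scaling, pseudocounts of 0.5 and 5, and both other filters on low values left every csf3r, csf3a and csf3b result on its side of the threshold. csf3r at 1.5 dpf lost its call with quantile normalization (0.48), edgeR (0.60), the hsp70l covariate (0.33) and the replicate block (0.61, adjusted p = 0.058 by limma), and ran from 0.49 to 0.73 with 1 library left out. The block changed no other call of the 3 genes; same-numbered libraries did not deviate together in every pair, so the numbers are not taken as pairs. csf3a in tet3-/- lost its call with the covariate (0.99) and without both shallow tet3-/- libraries (2.91, with 1 library left in the arm, assumed to vary like the other groups), and ran from 2.44 to 2.75 with 1 library left out. At 1.5 dpf it was lost with the covariate (1.99). Calls were gained for csf3a in double mutants against tet3-/- with only those groups fitted (-2.40) and with library weights (-2.60), and for its interaction with DESeq2 (-3.65) and weights (-3.85). Without weights and with 1 library left out, csf3a against tet3-/- ran from -2.93 to -2.01, with adjusted p from 0.042 to 0.24. csf3b gained calls in double mutants with DESeq2 (2.89) and weights (2.76), in tet3-/- with DESeq2 (2.95), only the compared groups (3.24) and weights (3.25), and at 1.5 dpf likewise (3.01, 3.16 and 3.30). The weights were 5.01 for double mutant replicate 3, against 0.38 and 0.49 for replicates 1 and 2. Weighted values and counts that involve double mutants therefore lean on 1 library. With the covariate socs3b at 1.5 dpf (-0.11) and bcl2l1 in tet3-/- (0.17) changed sign.

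Counts of genes called moved most. In double mutants 1383 became 2093 with DESeq2, 5591 with weights and 159 with the covariate. In tet2-/- 16 became 38 with quantile normalization, 111 with DESeq2, 68 with weights and 0 by limma with only the compared groups. In that last fit 931 genes had an unadjusted p under 0.05. edgeR, fitted over all groups, called 12. In tet3-/- 1159 became 3912 with only the compared groups, 3989 with weights, 21 with the covariate and 47 without the shallow libraries. At 1.5 dpf 3317 became 6639 with weights and 41 with the covariate. Against tet2-/- 709 became 1316 with DESeq2, 66 with only the compared groups, 1914 with weights and 108 with the covariate. Against tet3-/- 372 became 854, 600 and 2324 in the first 3 of these, and 11 without the shallow libraries. The interaction's 53 became 236 with DESeq2, 499 with weights, 81 with the covariate and 2 without the shallow libraries. With 1 library left out the counts ran from 688 to 1673 in double mutants, 7 to 85 in tet2-/-, 382 to 749 in tet3-/-, 1845 to 3316 at 1.5 dpf, 377 to 1145 and 168 to 314 for double mutants against tet2-/- and tet3-/-, and 14 to 141 for the interaction. The causes were not tested. The lowest count of the 3 genes was that of csf3b in 1 wildtype library, with 40 reads. The part of depth in the spread of csf3b was not tested.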

Other observations

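Marker lists gave these further calls by limma against wildtype at 2 dpf. Of all genes 8.68% were called in double mutants, 7.27% in tet3-/- and 20.8% at 1.5 dpf. Of 14 muscle markers 4 were lower in double mutants (28.6%), 6 in tet3-/- (42.9%) and 2 at 1.5 dpf (14.3%). Of 12 neural markers 2 were higher in double mutants (16.7%) and none was called in tet3-/-. At 1.5 dpf 4 neural markers were higher and 3 lower (58.3%). Of 12 macrophage markers 1 was higher and 6 were lower in double mutants (58.3%), and at 1.5 dpf 1 was higher and 4 were lower (41.7%).

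The genes with courses most like those of the ligand genes were looked up after values were seen, by Pearson correlation of log2 values over the 15 libraries, and are given as a description. For csf3a they were uevld (0.96), kin (0.95) and klf11b (0.94), and the most opposed were znf384l (-0.97) and hoxc8a (-0.96). For csf3b they were alas1 (0.94), an enzyme gene of heme synthesis, bcl10 (0.92), an adaptor gene of NF-kappaB signalling, and sec23b (0.92). The most opposed to csf3b was rarga (-0.90), a retinoic acid receptor gene. arf1 was among the 8 closest genes for both csf3r and csf3a.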
